A study of Mus musculus with 3 samples.

Results

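Calcitonin gene-related peptide (CGRP) and the subunits of its receptor were followed through mouse Achilles tendon and dorsal root ganglia (DRG). The members are 7 genes, matched by symbol in all 3 libraries: the ligand genes Calca and Calcb, the receptor gene Calcrl, the receptor activity-modifying proteins Ramp1, Ramp2 and Ramp3, and the receptor component Crcp. They are 7 of 33696 features in each tendon library and 7 of 35980 in the DRG library. In each library single cells were captured in droplets (10x Genomics), each droplet with a barcode and each captured transcript with a unique molecular identifier (UMI).

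All mice were C57BL/6. In the neurectomy group the sural nerve was cut, and 1 week later the ankle was fixed in dorsiflexion for 4 weeks before the Achilles tendon was taken. The sham library came from tendon after exposure of the nerve without transection and the same 4 weeks of immobilisation, so both tendon groups were immobilised; tendon without immobilisation was not analysed here. Each tendon group had 5 mice, and whether they were pooled is not stated. The DRG library came from 18 ganglia of 6 mice, collected 4 weeks after a viral tracer that carries tdTomato had been placed around the left Achilles tendon at 4 weeks of age. The labels call the tracer an adeno-associated virus in one field and a lentivirus in another, and give ganglia of both sides. With 1 library per group the difference between groups has no replicate check, so no test was made between neurectomy and sham, and every interval is a 95% interval for counting error only.

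CGRP is a vasodilator peptide made by sensory neurons, stored in dense-core vesicles and released from their endings in tissue. Calca gives rise to calcitonin or alpha-CGRP by alternative splicing, which UMI counts per gene do not tell apart, and Calcb encodes beta-CGRP. The receptor is a dimer. The G protein-coupled receptor encoded by Calcrl binds CGRP with high affinity when paired with Ramp1, and adrenomedullin when paired with Ramp2 or Ramp3. Crcp encodes an intracellular protein that aids coupling of the receptor to its G protein and is also a subunit of RNA polymerase III.

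Promoter sequence was available from RefSeq (GRCm38.p6) for 4 of the 7 members: Calca, Calcrl, Ramp1 and Ramp3. The 250 bases before the start are shown for the main ligand gene, the receptor gene and the RAMP gene that differed most between the tendon libraries, because these genes carry the results below. Capitals mark TGACG, the half-site bound by cAMP-response element factors, searched on both strands (TGACG or CGTCA).
Calca, chr7:114636358-114636607 (minus strand): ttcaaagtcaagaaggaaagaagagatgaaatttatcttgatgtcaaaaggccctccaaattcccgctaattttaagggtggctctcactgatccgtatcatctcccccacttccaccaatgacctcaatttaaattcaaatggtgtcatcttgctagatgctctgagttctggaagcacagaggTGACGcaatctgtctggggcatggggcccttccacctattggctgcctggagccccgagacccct
Calcrl, chr2:84425267-84425516 (minus strand): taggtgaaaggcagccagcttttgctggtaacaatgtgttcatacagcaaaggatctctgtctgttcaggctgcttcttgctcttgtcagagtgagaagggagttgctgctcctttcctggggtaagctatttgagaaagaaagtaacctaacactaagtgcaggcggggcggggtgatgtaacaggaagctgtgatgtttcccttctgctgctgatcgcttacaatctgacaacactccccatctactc
Ramp1, chr1:91179572-91179821 (plus strand): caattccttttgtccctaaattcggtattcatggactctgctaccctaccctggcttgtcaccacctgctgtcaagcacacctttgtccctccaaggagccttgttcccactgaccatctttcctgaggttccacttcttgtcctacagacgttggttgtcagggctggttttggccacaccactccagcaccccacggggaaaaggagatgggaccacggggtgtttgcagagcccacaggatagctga
The Calca window held 1 copy, which starts 65 bases before the transcription start, and the windows of Calcrl, Ramp1 and Ramp3 held 0. TGACG was present in 17.8% of all 32851 promoter windows of this length. GGGCGG, the box bound by Sp1 (with CCGCCC on the other strand), was found 1 time before Calcrl and 3 times before Ramp3, against 32.7% of all windows with at least 1. A match describes these letters and is not a binding site.

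Barcodes were sorted by marker genes, none of which is a member, and a name such as tenocyte means barcodes like that cell by its markers. The tendon barcodes selected by the fibroblast list were led by Acan, Kera and Col1a2, and are called Acan and Kera barcodes. The DRG barcodes selected by the monocyte list were led by S100a9 and Camp, genes of neutrophil granules, and are called S100a9 and Camp barcodes. A class was found for 7249 neurectomy, 11236 sham and 18914 DRG barcodes, which is 33.0%, 44.4% and 84.5% of those kept, so many tendon barcodes are not described here. The libraries held 79750679, 133570956 and 239515477 UMIs. The tendon pools also differed in sex transcripts: 4 Y-linked genes summed to 39 UMIs in the neurectomy and 6366 in the sham library, while Xist was abundant in both. In the DRG library the same 4 genes summed to 49538 UMIs and Xist to 23.

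The tendon libraries shared 1001 barcode sequences, against 153 shared by the neurectomy and DRG libraries and 189 by the sham and DRG libraries. These 1001 barcodes held 21.8% of the neurectomy UMIs and 12.3% of the sham UMIs. In each shared pair the copies differed in depth, with a median of 33823 UMIs in the deeper and 700 in the shallower copy, and 761 of the 1001 pairs were at least 10-fold apart. Ratios of the members between the tendon libraries are therefore given with and without these barcodes where the result turns on them, while co-detection counts, thinned shares, counts over all genes and values of other genes include them.

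The ligand genes were transcripts of neurons. The 3522 DRG neurons held 98.8% of the Calca UMIs and 98.7% of the Calcb UMIs of the library. Summed over neurons, Calca stood at 2694 CPM (2686 to 2702), the UMIs of a gene scaled by the total of its class, and Calcb at 418 CPM (415 to 421). The 15392 barcodes of other DRG classes averaged 28.4 CPM of Calca and 4.81 CPM of Calcb, with Calca between 17.6 and 76.1 CPM in the 15 non-neuronal classes of at least 50 barcodes. Barcodes with fewer than 500 genes held Calca at 750 CPM, here called the few-gene level. Such barcodes can hold free RNA of the suspension as well as shallow or damaged cells, and these were not told apart. The few-gene level is not a floor, since the non-neuronal classes lay below it. How much of their Calca is free RNA was not tested. When each barcode was thinned to 1000 UMIs, 58.0% of neurons (3295 barcodes, 227 shallower ones left out) and 2.51% of satellite glia held a Calca UMI. The shares before thinning were 85.9% and 11.6%, at median depths of 47161 and 5667 UMIs.

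Tendon held almost no ligand transcript. Calca summed to 27 UMIs in the neurectomy and 30 in the sham library, and Calcb to 0 and 5. The cell bodies of tendon's sensory fibres lie in the ganglia, and no neuronal class was gated in tendon.

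Among neurons, Calca spanned a wide range of levels across 10 subtypes. Adcyap1 and Tac1 neurons, the classical peptidergic nociceptors, stood highest at 7265 CPM (7231 to 7299, 566 neurons). Mrgpra3 neurons, which sense itch, followed at 5239 CPM in 136 neurons. Chrna3 silent-type nociceptors stood at 3424 CPM and Kit and Tafa1 A-fibre nociceptors at 2909 CPM. These 4 subtypes formed the upper group, since the next, the Mrgprd nociceptors of skin, stood 3.12-fold (3.06 to 3.18) below the Kit and Tafa1 neurons at 932 CPM.

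The lower subtypes came at 551 CPM in Nppb and Sst itch neurons, 542 CPM in Nefh touch neurons, 432 CPM in Pvalb proprioceptors, 374 CPM in Trpm8 cold-sensing neurons and 169 CPM in C-low-threshold mechanoreceptors (C-LTMRs). The highest exceeded the lowest 42.9-fold (41.3 to 44.5). Nppb and Sst neurons and Nefh touch neurons did not differ beyond counting error (ratio 1.02, 0.965 to 1.07), while the other neighbours in the order did. The 1059 neurons that fitted no subtype stood at 4132 CPM, at a median depth of only 7722 UMIs.

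**Figure D1:**
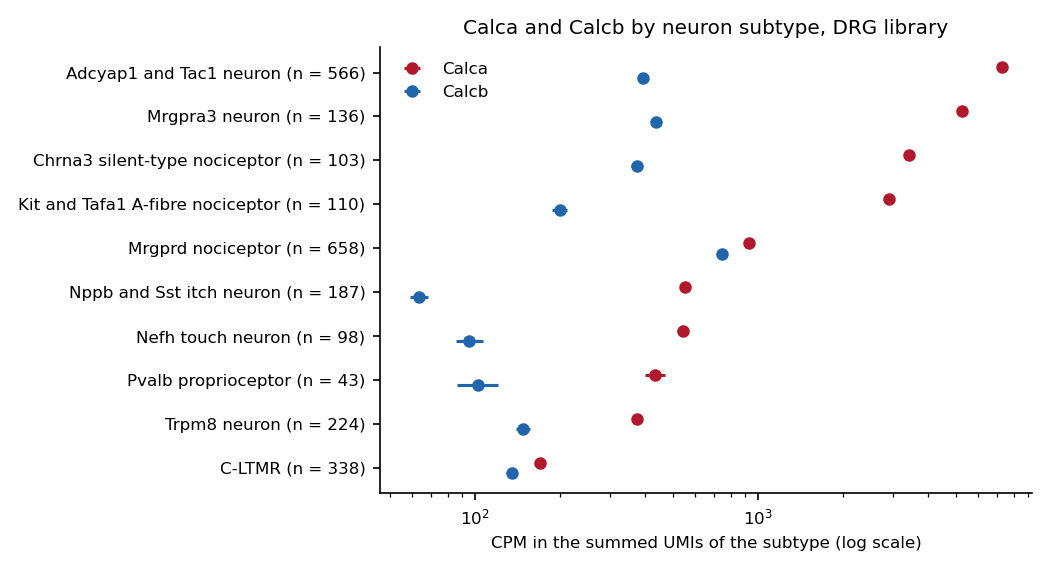
Level of Calca (red) and Calcb (blue) in the summed UMIs of each DRG neuron subtype, in CPM on a log axis, with 95% counting intervals as bars. Calca falls from 7265 CPM in Adcyap1 and Tac1 neurons to 169 CPM in C-LTMRs, while Calcb is highest in Mrgprd nociceptors at 745 CPM.

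The sums hid how unevenly Calca was spread over single neurons in the lower subtypes. In Adcyap1 and Tac1 neurons the median neuron held 6685 CPM, and 545 of 566 (96.3%) exceeded 1000 CPM. In Mrgpra3 neurons 135 of 136 did. In Mrgprd nociceptors the median was 740 CPM and 35.9% exceeded 1000 CPM. In C-LTMRs the median was 16.2 CPM, and the top 10% of neurons by Calca held 92.8% of the subtype's Calca UMIs. Nppb and Sst neurons (median 52.5 CPM, 76.0% of UMIs in the top 10%) and Pvalb proprioceptors (median 30.4 CPM, 82.3%) had the same shape. A Calca UMI was found in 55.6% of C-LTMRs, 86.6% of Nppb and Sst neurons and 69.8% of Pvalb proprioceptors. The sums of these subtypes thus rest on a minority of neurons with high Calca. Non-neuronal barcodes averaged 28.4 CPM, and the part of free RNA in the low values was not tested.

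**Figure D2:**
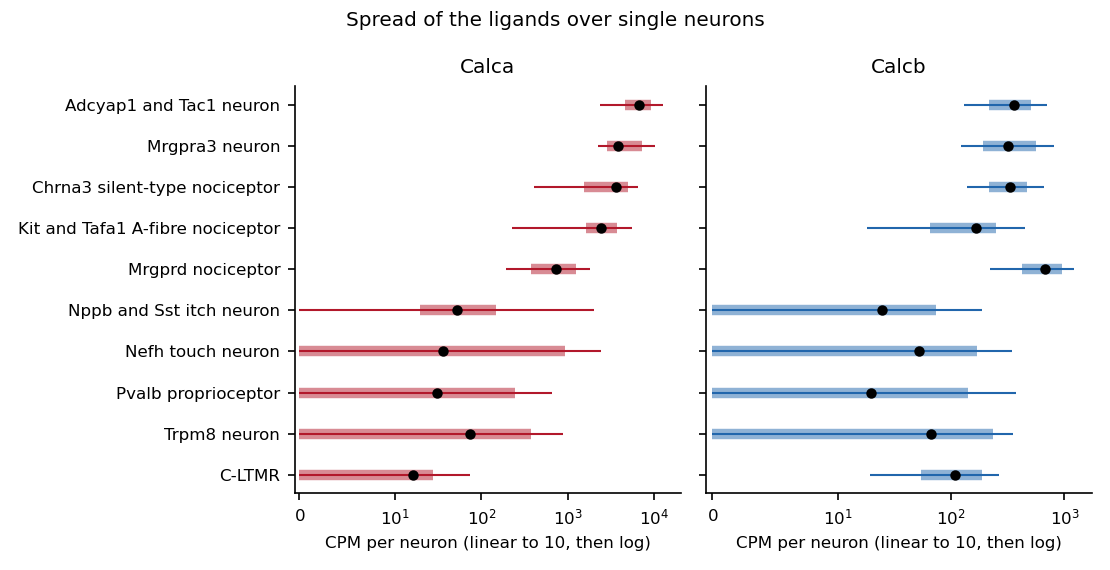
Calca and Calcb in single neurons of each subtype, in CPM (axis linear to 10, then log): dots are medians, thick bars the 25th to 75th percentiles and thin lines the 10th to 90th percentiles. The Calca medians run from 6685 CPM in Adcyap1 and Tac1 neurons to 16.2 CPM in C-LTMRs.

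Calcb followed another order. Mrgprd nociceptors, classed as non-peptidergic by their usual markers, stood highest at 745 CPM and held 54.3% of all neuronal Calcb UMIs. Mrgpra3 neurons followed at 435 CPM, Adcyap1 and Tac1 neurons at 393 CPM and Chrna3 nociceptors at 372 CPM. The lowest was 63.5 CPM in Nppb and Sst neurons, 11.7-fold (10.9 to 12.7) under the highest. Pvalb proprioceptors at 103 CPM and Nefh touch neurons at 95.5 CPM did not differ beyond counting error (ratio 1.08, 0.878 to 1.31).

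The balance of both ligands therefore differed between subtypes. Adcyap1 and Tac1 neurons held 18.5 Calca UMIs per Calcb UMI (18.1 to 18.9), Kit and Tafa1 neurons 14.6 and Mrgpra3 neurons 12.0. Mrgprd nociceptors held 1.25 and C-LTMRs 1.26. These ratios compare subtypes and not the amounts of both peptides, since capture can differ between transcripts.

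The vector transcript gave a view of neurons reached from the tendon sheath. Neurons with at least 10 vector UMIs numbered 189. They held Calca at 3157 CPM (3123 to 3190), against 2644 CPM (2636 to 2653) in the 3162 neurons without a vector UMI, with median levels of 2929 and 1107 CPM per neuron. Calcb was 404 CPM in the former and 415 CPM in the latter. The share of neurons with the vector was 20.9% (13.7 to 29.7%) in Kit and Tafa1 neurons and 16.2% (10.4 to 23.5%) in Mrgpra3 neurons, followed by 11.6% (3.89 to 25.1%) in Pvalb proprioceptors, a subtype poor in Calca, and 10.7% (5.45 to 18.3%) in Chrna3 nociceptors. It was 5.30% (3.60 to 7.48%) in Adcyap1 and Tac1 neurons and from 1.34% to 4.81% in the other 5 subtypes. Whether the difference in Calca follows from this mix of subtypes was not tested.

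Enzymes and granule proteins of the peptide pathway accompanied the ligand unevenly; the 4 genes given here were chosen after their values were seen. Of the 11 genes listed for peptide processing and release, Scg2, which helps build dense-core vesicles, was 819 CPM in Adcyap1 and Tac1 neurons but 29.0 CPM in Mrgprd nociceptors and 30.6 CPM in C-LTMRs. Pcsk1, a prohormone convertase, was 97.0 CPM in Adcyap1 and Tac1 neurons, 171 CPM in Kit and Tafa1 neurons and 8.16 CPM in Mrgprd nociceptors. Scg3 went the other way, at 736 CPM in Mrgprd nociceptors and 136 CPM in Adcyap1 and Tac1 neurons. Pam, which forms the amide end that CGRP needs for activity, ranged from 203 CPM in Mrgprd nociceptors to 868 CPM in Adcyap1 and Tac1 neurons, and was also abundant in tenocytes (1259 CPM in neurectomy, 1419 CPM in sham).

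Over the 10 subtypes the genes with levels most like Calca were Gpc5 (Pearson r of log2 CPM with 10 added, 0.93), Mettl7a3 (0.92), Pirt (0.91), Fzd3 (0.90) and Pcsk1n (0.88), among 5683 genes. Those most like Calcb were Eif1a (0.89), Cd44 (0.87), Anxa5 (0.86), Gpr155 (0.86) and Dgcr6 (0.85). All points come from 1 library, and Calca and Calcb correlated with each other at 0.65.

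Neurons themselves held little receptor transcript, with 9.77 CPM of Calcrl, 1.20 of Ramp1, 3.93 of Ramp2 and 1.23 of Ramp3. Calcrl reached 23.5 CPM (21.6 to 25.5) in Adcyap1 and Tac1 neurons, the subtype richest in Calca. Nppb and Sst, Mrgpra3, Kit and Tafa1, and Chrna3 neurons followed between 9.81 and 11.8 CPM, with overlapping intervals. The other 5 subtypes lay between 0.642 CPM in Trpm8 neurons and 2.12 CPM in Pvalb proprioceptors.

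Trpm8 neurons, with the least Calcrl, had high levels of the RAMP genes. Ramp2 stood there at 10.4 CPM (8.26 to 12.9), not separated from the 9.21 CPM of Pvalb proprioceptors and 8.97 CPM of Nefh touch neurons, and Ramp3 at 8.22 CPM (6.33 to 10.5), against at most 2.03 CPM of Ramp3 in any other subtype. Ramp1 was 4.75 CPM in Trpm8 neurons, 5.67 CPM (8 UMIs) in Pvalb proprioceptors and 0.286 CPM in Mrgprd nociceptors. The few-gene levels of the DRG library were 14.0 CPM for Calcrl (17 UMIs), 6.58 for Ramp1 (8 UMIs) and 14.0 for Ramp2 (17 UMIs). In every subtype the Ramp1 and Ramp2 values lay below these levels, which rest on few UMIs and were given no interval. The interval of Ramp1 in Pvalb proprioceptors (2.45 to 11.2 CPM) holds 6.58. Ramp3 in Trpm8 neurons (against 1.65 CPM, 2 UMIs) and Calcrl in Adcyap1 and Tac1 neurons lay above the few-gene level. Mrgpra3 neurons held 95 Calcrl UMIs but 0 of Ramp1 and 0 of Ramp3. For each of these 0 counts the floor of 3 UMIs is 0.323 CPM and the exact upper limit 0.398 CPM. Of 2951 neurons with at least 5000 UMIs, 695 held Calcrl, 125 held Ramp1 and 24 (0.813%) held both. Crcp was the most even member, between 17.6 CPM in Trpm8 and 39.0 CPM in Nppb and Sst neurons.

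In the ganglion, Calcrl was highest in blood endothelium. Blood endothelial cells held 675 CPM of Calcrl and 327 CPM of Ramp2, with 15.4 CPM of Ramp3 and only 2.80 CPM of Ramp1 (16 UMIs). Among their 445 barcodes with at least 5000 UMIs, 92.1% held both Calcrl and Ramp2. Smooth muscle, the contractile layer on which CGRP acts as a dilator, held 101 CPM of Calcrl and 118 CPM of Ramp1 with 9.23 CPM of Ramp2. Ramp1 was 42.2-fold higher (25.1 to 75.9) in smooth muscle than in blood endothelium.

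At a common 1000 UMIs, 48.9% of DRG blood endothelial barcodes held Calcrl, 28.6% Ramp2 and 0 of 644 Ramp1 (exact upper limit 0.571%). In smooth muscle the shares were 8.02% for Calcrl, 9.57% for Ramp1 and 0.617% for Ramp2. Pericytes, the mural cells of capillaries, held 41.4 CPM of Calcrl but only 6.90 CPM of Ramp1 (7 UMIs).

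Other DRG classes paired the subunits in other ways. Fibroblasts held Calcrl at 104, Ramp1 at 82.0 and Ramp2 at 357 CPM. Barcodes selected by the perineurial list were led by Dcn and Igfbp6 and are left unnamed; they held Ramp1 at 164 and Ramp2 at 222 CPM with Calcrl at 16.4 CPM. Satellite glia, which wrap the neuron bodies, held 207 CPM of Ramp2 but 0.37 CPM of Calcrl (9 UMIs in 4029 barcodes), and non-myelinating Schwann cells 103 and 0.498 CPM. Ramp2 was thus found with almost no Calcrl in both glial classes.

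Ramp3 was highest in immune classes of the ganglion. T and NK cells held 346 CPM of Ramp3 and dendritic cells 295 CPM, against 5.70 CPM in macrophages. Macrophages and the S100a9 and Camp barcodes held Ramp1 instead, at 54.2 and 253 CPM, with Calcrl at 22.2 and 40.6 CPM. Ramp3 made up 77.8% of the RAMP UMIs of T and NK cells, 81.3% of those of dendritic cells and 8.40% of those of macrophages. In myelinating Schwann cells Ramp3 was low at 9.38 CPM yet made up 79.0% of the 176 RAMP UMIs.

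**Figure D3:**
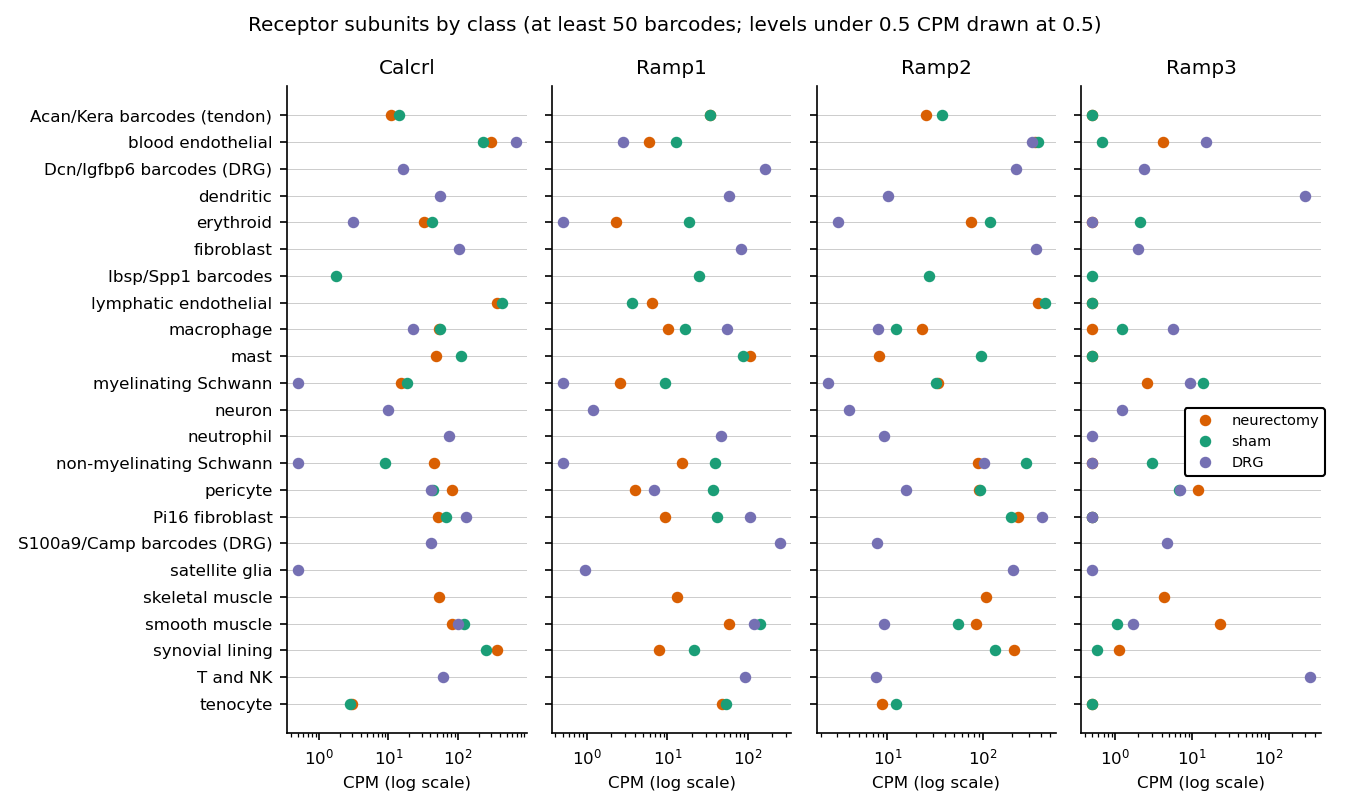
Calcrl, Ramp1, Ramp2 and Ramp3 in each class with at least 50 barcodes, in CPM on a log axis, with neurectomy in orange, sham in green and DRG in purple. Calcrl is highest in DRG blood endothelium at 675 CPM and lies near 3 CPM in tenocytes.

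In tendon the receptor gene was highest in lymphatic and blood endothelium and synovial lining, and the cells that make tendon matrix had Ramp1 with little of it. Blood endothelial cells held Calcrl at 297 CPM in neurectomy and 232 CPM in sham, and lymphatic endothelial cells at 369 and 430 CPM. Their Ramp2 levels were 348 and 373 CPM in blood and 373 and 446 CPM in lymphatic endothelium. Synovial lining cells, which secrete joint lubricant, held Calcrl at 361 and 257 CPM. Tenocytes held 3.01 and 2.77 CPM of Calcrl but 47.2 and 53.3 CPM of Ramp1.

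Pi16 fibroblasts of tendon combined subunits that tenocytes did not. Their Calcrl was 52.0 and 68.0 CPM and their Ramp2 231 and 197 CPM in neurectomy and sham. The few-gene level was 88.1 and 35.8 CPM for Calcrl and 134 and 105 CPM for Ramp2. The neurectomy Calcrl of Pi16 fibroblasts lay below it. Tenocytes lay further below it for Ramp2 (8.67 and 12.2 CPM). How much of these values is free RNA was not tested. The DRG barcodes with the same markers held 131 CPM of Calcrl, 105 of Ramp1 and 415 of Ramp2. Smooth muscle of tendon held Calcrl at 81.8 and 124 CPM, with the neurectomy value again below the few-gene level, against 101 CPM in the DRG.

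Lymphoid, dendritic and mast barcodes of tendon were few but rich in Ramp1. T and NK cells held 346 CPM (31 barcodes, 57 UMIs) in neurectomy and 192 CPM (33 barcodes, 47 UMIs) in sham. Dendritic cells held 97.9 and 108 CPM and mast cells 105 and 87.4 CPM. Macrophages, with 1437 and 1251 barcodes, held 10.0 and 16.7 CPM, below the 54.2 CPM of DRG macrophages. In the ganglion T and NK cells were led by Ramp3 (346 CPM) over Ramp1 (91.3 CPM), while Ramp1 made up 60.6% and Ramp3 37.2% of their 94 RAMP UMIs in neurectomy tendon, and Ramp1 83.9% of 56 in sham tendon. Tissue, digestion, sex transcripts, gene annotation and library differ together here and cannot be told apart.

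Crcp levels were low in tendon and uneven in the ganglion. At a common 1000 UMIs, 2.88% (2.34 to 3.51%) of neurons held Crcp. The shares were 0.571% (0.362 to 0.855%) of satellite glia and 0.775% (0.413 to 1.32%) of DRG fibroblasts, while barcodes of the perineurial list held it in 3.40% (1.11 to 7.76%). Among tendon classes of at least 50 barcodes it ranged from 2.99 CPM (1 UMI) in sham non-myelinating Schwann cells to 18.0 CPM in sham smooth muscle, and in the ganglion neurons (30.1 CPM), T and NK cells (30.4 CPM, 8 UMIs) and dendritic cells (30.2 CPM, 12 UMIs) stood at like levels.

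Ramp1 made up 84.2% of the RAMP UMIs in neurectomy tenocytes and 81.3% in sham tenocytes, against 1.64% and 3.28% in blood endothelium. In sham tenocytes with at least 5000 UMIs, 716 of 1521 held Ramp1 and 19 held Calcrl, and 11 (0.72%) held both. In sham smooth muscle 23 of 65 (35.4%) held both. The few-gene level of Ramp1 was 20.7 CPM in neurectomy and 38.4 CPM in sham.

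The Ramp1 share of the RAMP UMIs was lower in neurectomy in some classes and not in others. It was 3.86% of 674 RAMP UMIs in neurectomy Pi16 fibroblasts and 17.3% of 1205 in sham, or 4.29% and 18.0% without the shared barcodes. In smooth muscle it was 35.1% of 57 and 71.5% of 186 (39.1% and 71.5% without), and in macrophages 30.3% of 145 and 55.1% of 225 (28.9% and 53.5% without). In synovial lining it was 3.59% of 195 and 13.7% of 270 (4.05% and 18.0% without). In the haemoglobin-rich barcodes it was 3.03% of 33 and 13.4% of 67 (3.1% and 13.4% without). The Acan and Kera barcodes went the other way, at 56.9% of 65 and 47.0% of 541, and lay together at 46.9% and 46.7% without the shared barcodes. Lymphatic endothelium (1.68% and 0.818%, from 22 and 19 Ramp1 UMIs) and tenocytes (84.2% and 81.3%) also went the other way. In DRG Pi16 fibroblasts the share was 20.2%. These shares hold no class total and so do not depend on the scaling. They move with Ramp2 and Ramp3 as well as with Ramp1, and Ramp2 also differed between the libraries (ratios below). In neurectomy smooth muscle Ramp3 made up 14.0% of the 57 UMIs and was found in 0.962% of the barcodes.

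**Figure D4:**
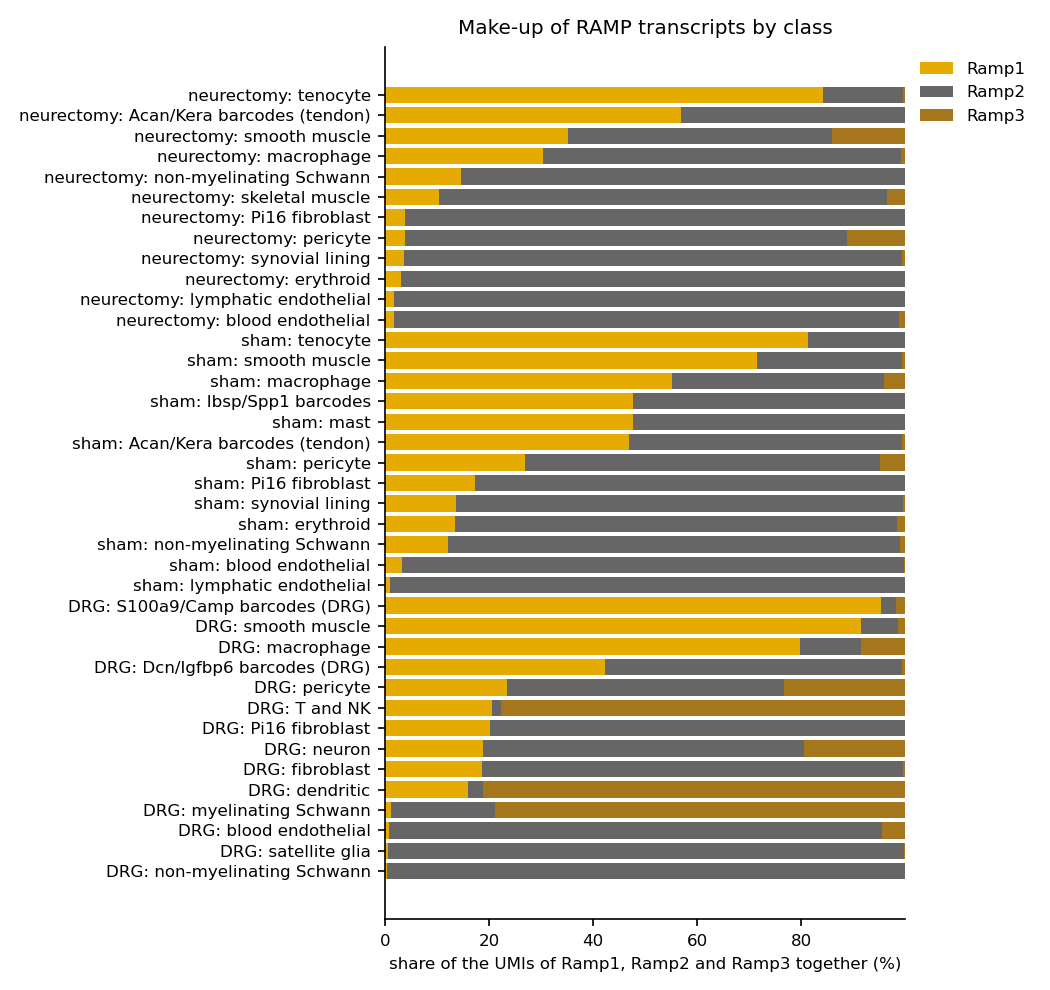
Share of Ramp1, Ramp2 and Ramp3 in the RAMP UMIs of each class with at least 20 such UMIs and at least 50 barcodes. Ramp1 makes up 84.2% and 81.3% in the tenocytes of both tendon libraries and 91.6% in DRG smooth muscle, and Ramp2 nearly all in endothelium and satellite glia.

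Neurectomy was set beside sham in 9 sets of barcodes with at least 100 in each library. The 5 receptor genes gave 45 pairs, of which 27 passed the filter of 50 summed UMIs and 10 CPM in the higher library. Of these 27, 3 were at least 2-fold apart, all of them Ramp1 and all lower in neurectomy. Over all genes tested, 2.12% were at least 2-fold apart in Pi16 fibroblasts (1.04% higher and 1.08% lower in neurectomy), 1.85% in blood endothelium (1.40% and 0.453%) and 5.79% in smooth muscle (2.97% and 2.82%). The same shares were 1.45% in tenocytes (0.809% and 0.645%), 4.03% in macrophages (3.24% and 0.789%) and 4.73% in synovial lining (1.22% and 3.5%). They were 2.23% in lymphatic endothelium (1.76% and 0.471%), 4.6% in the Acan and Kera barcodes (1.33% and 3.28%) and 6.5% in the haemoglobin-rich barcodes (4.28% and 2.22%). Without the shared barcodes 23 of the 27 pairs stayed on the same side of 1, and the pairs that crossed were Ramp1 in tenocytes, Ramp1 and Calcrl in the Acan and Kera barcodes and Calcrl in macrophages. Against sham barcodes with Xist and no Y-linked UMI, 21 of 27 stayed on the same side. The 6 that crossed were Ramp1 in blood endothelium, Ramp2 in tenocytes, Calcrl and Ramp2 in smooth muscle, and Calcrl and Ramp1 in the Acan and Kera barcodes. This filter was applied to sham only and needs a detected Xist UMI, so it also selects deeper sham barcodes. In macrophages it kept 705 of 1251 sham barcodes but 342 of their 408 Calcrl UMIs. Sex and depth therefore cannot be told apart in the values against Xist-only sham barcodes.

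In Pi16 fibroblasts, adventitial cells marked by Pi16 and Dpp4, Ramp1 summed to 26 UMIs in neurectomy and 209 in sham. The levels were 9.27 and 41.3 CPM, a ratio of 0.224 (0.143 to 0.338). Ramp1 was found in 19 of 442 neurectomy and 108 of 465 sham barcodes, and no barcode held more than 7 UMIs. At a common 1000 UMIs per barcode, 1.08% (0.294 to 2.73%) and 5.00% (3.08 to 7.62%) held a Ramp1 UMI. Median depth was 1848.5 and 4465 UMIs. Without the shared barcodes the ratio was 0.245 (0.155 to 0.373), and against sham barcodes with Xist and no Y-linked UMI it was 0.228 (0.145 to 0.345).

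The tenocyte list of 8 genes summed to 899 CPM in neurectomy and 886 CPM in sham Pi16 fibroblasts, with all 8 detected, and the smooth muscle list to 15.7 and 14.8 CPM, with Cnn1 and Pln at 0 in both. Other lists were higher in neurectomy: blood endothelial markers at 56.0 and 35.2 CPM, macrophage markers at 71.7 and 57.1 CPM and mast cell markers at 5.70 and 2.17 CPM (16 and 11 UMIs), while T and NK markers were 0.713 and 1.19 CPM (2 and 6 UMIs). The part of these in the result was not tested. Ramp2, the main RAMP there, was 231 and 197 CPM (ratio 1.17, 1.06 to 1.30), and Calcrl 52.0 and 68.0 CPM (0.766, 0.627 to 0.932). Calcrl and Ramp1 were found together in 7 of 136 neurectomy and 53 of 227 sham barcodes with at least 5000 UMIs, at median depths of 15556.5 and 20543 UMIs. The few-gene level of Ramp1 was also lower in neurectomy (20.7 against 38.4 CPM). Pi16 fibroblasts stood below it in neurectomy (9.27 CPM) and within counting error of it in sham (41.3 CPM, 35.9 to 47.3), and its part in the result was not tested.

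The other Ramp1 differences were less steady. In smooth muscle Ramp1 was 58.4 CPM in neurectomy (20 UMIs, 104 barcodes) and 141 CPM in sham (133 UMIs, 267 barcodes), a ratio of 0.415 (0.245 to 0.667). Without the shared barcodes it was 0.489 (0.281 to 0.802), with 98 neurectomy barcodes left. At a common 1000 UMIs, 7.14% (2.67 to 14.9%) of neurectomy and 9.01% (5.59 to 13.6%) of sham barcodes held Ramp1, which overlap. Against sham barcodes with Xist only, it was 0.684 (0.346 to 1.35), at 85.5 CPM in sham. Sham smooth muscle barcodes with Y-linked transcripts only stood at 201 CPM. The smooth muscle list itself was 9787 CPM in neurectomy and 16414 CPM in sham, and the tenocyte list 5190 and 3093 CPM; the part of these in the result was not tested.

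In blood endothelium Ramp1 was 5.87 CPM (18 UMIs) in neurectomy and 12.7 CPM (38 UMIs) in sham, a ratio of 0.464 (0.249 to 0.832), and of 0.481 (0.258 to 0.867) without the shared barcodes. At a common 1000 UMIs the shares with Ramp1 were 0.604% (0.222 to 1.31%) and 1.87% (1.07 to 3.01%). In this class the tenocyte list summed to 2458 CPM in neurectomy and 2716 CPM in sham. The smooth muscle list summed to 443 and 601 CPM and the macrophage list to 148 and 174 CPM. Other lists were higher in neurectomy: Pi16 fibroblast markers at 217 and 145 CPM, mast cell markers at 16.6 and 10.0 CPM and T and NK markers at 5.54 and 3.00 CPM. The part of these in the result was not tested. The sham barcodes with Xist only held 3 Ramp1 UMIs, or 2.44 CPM, so that the direction turned (2.41, 0.703 to 12.8). The Ramp1 level in blood endothelium was also below the few-gene level of both libraries.

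In tenocytes, the cells with most of the tendon's Ramp1 UMIs among the named classes, the libraries were closer. Their ratio was 0.885 (0.809 to 0.968) with all barcodes and 1.04 (0.943 to 1.14) without the shared barcodes. Macrophages had 10.0 CPM in neurectomy and 16.7 CPM in sham (0.599, 0.414 to 0.851), both below the few-gene level. At a common 1000 UMIs the shares of macrophages with Ramp1 were 1.26% and 1.43%. The Acan and Kera barcodes had 33.8 and 33.5 CPM (1.01, 0.695 to 1.43).

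Calcrl passed the filter in 7 sets and in 0 of them reached 2-fold, with the interval above 1 in 2 sets and below 1 in 2. It was higher in neurectomy in synovial lining (1.40, 1.21 to 1.62) and blood endothelium (1.28, 1.16 to 1.42), and lower in lymphatic endothelium (0.857, 0.799 to 0.918) and Pi16 fibroblasts (0.766, 0.627 to 0.932). The few-gene level of Calcrl was also higher in neurectomy (88.1 against 35.8 CPM), and its part in these ratios was not tested. In synovial lining at a common 1000 UMIs, 31.3% (22.8 to 40.7%) of neurectomy and 10.4% (5.79 to 16.8%) of sham barcodes held Calcrl, a wider gap than the ratio of sums, and 3 barcodes held 29.6% and 32.4% of the Calcrl UMIs. Without the shared barcodes the synovial ratio was 1.83 (1.52 to 2.20), at median depths of 1737 and 8013.5 UMIs with all barcodes, and the Pi16 ratio 0.845 (0.685 to 1.04). Against sham barcodes with Xist only, synovial Calcrl was 1.17 (1.01 to 1.35), blood endothelial Calcrl 1.12 (0.986 to 1.27) and lymphatic Calcrl 0.915 (0.846 to 0.990).

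Ramp2 passed in all 9 sets and reached 2-fold in 0. The largest ratio was 1.83 (1.37 to 2.46) in macrophages, at 22.8 and 12.4 CPM, followed by 1.56 (1.28 to 1.90) in synovial lining, or 1.81 (1.43 to 2.28) without the shared barcodes. In smooth muscle it was 1.54 (0.942 to 2.47), from 29 and 52 UMIs. Without the shared barcodes smooth muscle was highest, at 1.94 (1.18 to 3.13), with macrophages at 1.82 (1.35 to 2.45). Against Xist-only sham barcodes the smooth muscle ratio was 0.897 (0.494 to 1.65). Macrophage Ramp2 lay far below the few-gene level of 134 and 105 CPM. Against sham macrophages with Xist only, at 6.51 CPM, the macrophage ratio was 3.50 (2.39 to 5.21). In tenocytes Ramp2 was 0.710 (0.575 to 0.871) with all barcodes and 1.37 (1.07 to 1.75) against Xist-only sham barcodes, so its direction turned with the sham barcodes used. Crcp passed in 5 sets, and its interval held 1 in all 5. Ramp3 passed in 0 sets; in tendon T and NK cells, with only 31 and 33 barcodes, it was 212 and 32.7 CPM, and no comparison was made.

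**Figure D5:**
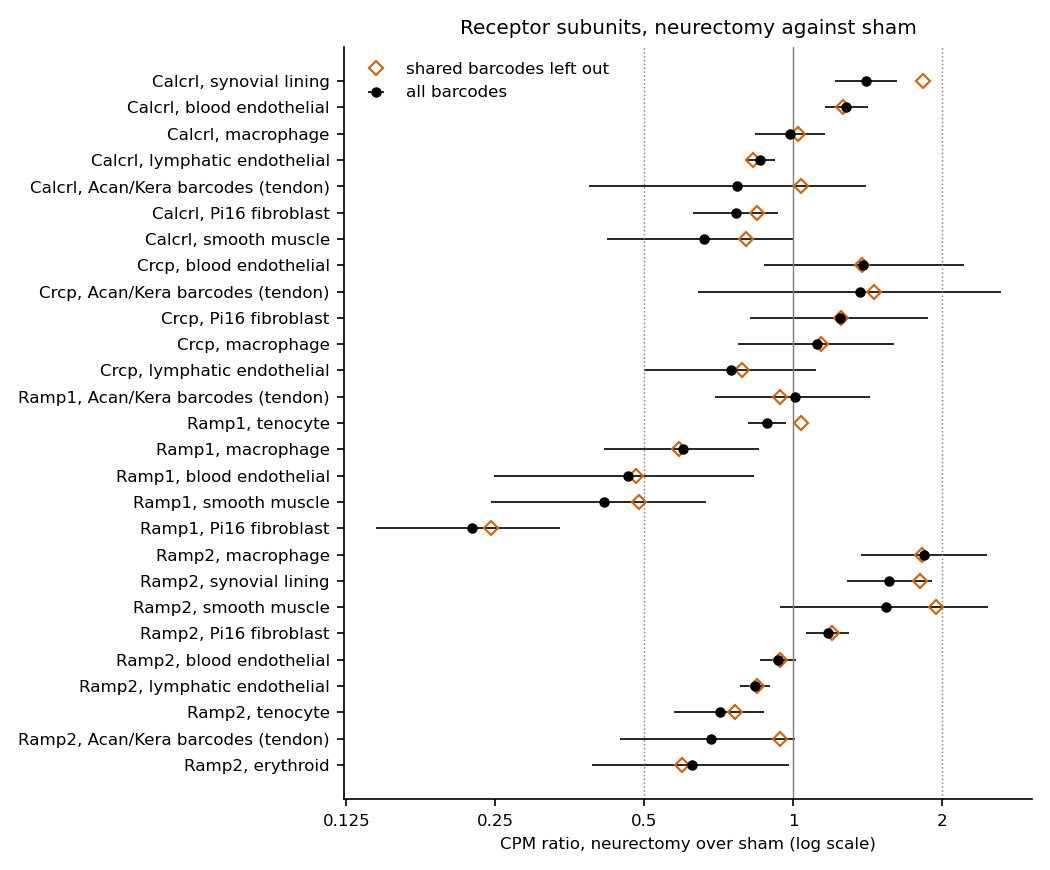
Ratio of neurectomy to sham for the 27 pairs of receptor gene and barcode set that passed the filter, on a log axis, with 95% counting intervals (black) and the ratio without shared barcodes (orange). Ramp1 in Pi16 fibroblasts lies farthest from 1 at 0.224, and dotted lines mark 2-fold.

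Few pairs from the lists of genes around the receptor were at least 2-fold apart between the tendon libraries. Few of all genes were either, from 1.45% in tenocytes to 6.5% in the haemoglobin-rich barcodes. The list for receptor signalling and trafficking has 19 genes and gave 129 pairs, of which 0 rose past 2-fold in neurectomy and 2 lay more than 2-fold below sham. Both were Pde4d, a phosphodiesterase that degrades cAMP: 338 against 770 CPM in the Acan and Kera barcodes, and 91.3 against 254 CPM in synovial lining. Gnas, Prkaca and the adenylyl cyclases gave no such pair. The list medians ran from -0.08 to 0.12 (log2), close to those of all genes.

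Of 26 pairs from peptide processing and release, Cpe, a carboxypeptidase, was higher in neurectomy macrophages (10.2 against 2.16 CPM) and lower in the Acan and Kera barcodes (18.3 against 42.0 CPM). The 18 pairs from peptide breakdown and 14 from related ligands and receptors gave 0 at least 2-fold apart. With 1.45% to 6.5% of all genes that far apart in each set, these small counts were not read as a result about the lists. Ackr3, a scavenger receptor for adrenomedullin, was 450 and 701 CPM in Pi16 fibroblasts. Adm, the adrenomedullin gene, was highest in tendon in lymphatic endothelium at 92.2 and 86.3 CPM, where Calcrl and Ramp2 were also high. Cma1, the mast cell chymase, stood at 6686 and 5618 CPM in mast cells, and Ece1, an enzyme that cleaves internalised CGRP, at 743 and 852 CPM in lymphatic endothelium. Iapp had 0 UMIs in every class listed, and Calcr at most 1.57 CPM (2 UMIs).

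Over 44 classes of the 3 libraries, the gene with levels most like Ramp2 was Lama4 (r 0.86), followed by Fbxl7, Thbd, S100a16 and Ece1 (0.78), among 9341 genes. Those most like Ramp3 were Pdcd1lg2 (0.91), Klrk1, Gpr55, P2ry10 and Cd226 (0.88). The highest values were lower for Calcrl (Clic5, 0.74, itself a marker of the synovial gate, then Efnb2, Sema3f, Chst15 and Fzd6) and Ramp1 (Cmtm7, 0.61, then Thbs1, Serp1, Itgb7 and Fam107b). Calcrl correlated with Ramp2 at 0.54 and with Ramp1 at 0.05; classes of 1 library share its depth and free RNA.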

How the data were processed

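The authors deposited raw UMI counts (whole numbers, 1 matrix for each library), which Cell Ranger 8.0.1 wrote according to the file headers. The submitters' processing notes name the builds mm10 and GRCm39 without a role, so no coordinates come from these files; the settings of Cell Ranger were not found in the labels. Barcodes under 500 genes or over 15% mitochondrial UMIs were dropped, which left 21992 neurectomy, 25306 sham and 22384 DRG barcodes. A barcode entered a class with at least 3 of its markers and a share of UMIs in that list at least 4 times the tissue mean (2 times for lists above 0.2% of UMIs). Barcodes that passed lists of unrelated classes (665, 1224 and 499) were left out, which was the only treatment of doublets. Neuron subtypes needed 3 markers, a mean fold of 2 and a lead of 1.5. These thresholds were set after seeing the data, and the members and lists were chosen with earlier results of these data known. Counts were summed per class and divided by the class total (CPM). Intervals are exact Poisson, Clopper-Pearson or conditional binomial, at 95%, and they cover sampling of UMIs alone. Where a level is 0, the floor is 3 UMIs. Named genes were all members, the 5 genes most like each in level, and genes of the listed pathways that were at least 2-fold apart or highest; other list genes named (Scg2, Pcsk1, Scg3, Pam, Gnas, Prkaca, Iapp, Calcr) were chosen after their values were seen. The ratio script was tested on simulated data. Python 3.11.15, numpy 2.4.6, scipy 1.17.1 and pandas 2.3.3 were used. Alternatives covered filters, gates, scaling, sex transcripts and shared barcodes.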

Additional observations from a re-analysis of the deposited data

How the results depend on the processing

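The 42.9-fold range of Calca between Adcyap1 and Tac1 neurons and C-LTMRs became 34.8 with 1 more marker needed, 40.7 with mixed barcodes kept, 39.1 as a mean over barcodes and 41.1 at no more than 5% mitochondrial UMIs, all outside its counting interval. Adcyap1 and Tac1 neurons stayed highest for Calca and Mrgprd nociceptors for Calcb in all 7 alternatives run. The 42.2-fold range of Ramp1 between DRG smooth muscle and blood endothelium (smooth muscle over endothelium) stayed between 37.5 and 51.0 in 6 alternatives, within its interval; the 5% mitochondrial limit gave no value. The count of 3 receptor pairs at least 2-fold apart became 5 with mixed barcodes kept and 12 without a gene filter, where pairs of a few UMIs enter, and was 2 to 4 otherwise. Against sham barcodes with Xist only the count was 2, Ramp1 in Pi16 fibroblasts and Ramp2 in macrophages. With at least 5000 UMIs only 5 of the 9 sets kept 100 barcodes in each library. The log2 ratio of Ramp1 in Pi16 fibroblasts stayed between -2.57 and -1.63 in 11 alternatives. In smooth muscle it was -0.78 as a mean over barcodes. In macrophages it passed 2-fold at 1000 genes (-1.06) and at 5000 UMIs (-1.39). The alternatives that leave out shared barcodes or their shallower copies were chosen after seeing the data. Gating thresholds, free RNA and 1 library per group limit all levels. No paired analysis was possible because each group has 1 library.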
